A study of Mus musculus with 5 samples.

Results

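The genes described here are Shh, which encodes the secreted ligand Sonic hedgehog, Gli1 and Gli2, which encode zinc finger transcription factors at the end of the Hedgehog pathway, and Gas1, which encodes a cell surface co-receptor for the ligand. They were taken by exact gene name from a table of 12375 named loci, and all 4 were found, each at 1 locus. Expression had been measured by sequencing poly(A) RNA from 5 tissues of C57BL/6J mouse embryos, with 1 library for each tissue. The foregut and the medial foregut came from embryonic day 8.5 (E8.5), and the liver and the dorsal and ventral pancreas from E10.5. The labels name no mutant allele and no treatment in any library, and they do not say how tissue was dissected or whether embryos were pooled. There was thus no replicate and no test: each value describes a single library, and no difference has an error.

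Hedgehog ligands bind the receptor Patched, which otherwise holds the membrane protein Smoothened inactive. Once Smoothened is released, Gli proteins at the primary cilium are no longer cut into repressors and activate their target genes. Gli2 is the main activator, Gli3 acts largely as a repressor, and Gli1 is itself a target, so that its RNA is widely used as a readout of the pathway. In the embryonic gut the ligand comes from the endodermal epithelium and signals to the surrounding mesenchyme. The endoderm that forms the pancreas is known for lacking Shh, and ectopic Shh there is known to disturb pancreas formation.

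The 4 loci lie on separate chromosomes. In the mm9 coordinates of the table, Shh spanned 28783372 to 28807598 on chromosome 5, Gli1 126760793 to 126779242 on chromosome 10 and Gli2 120730644 to 120956647 on chromosome 1, all on the minus strand. Gas1 spanned 60275765 to 60279203 on chromosome 13 and was listed on the plus strand. The GENCODE M21 annotation, on build GRCm38, places Gas1 on the minus strand as a gene of 1 exon. By length, the interval in the table was 232% of the annotated span for Shh and 153% for Gli1. It was 103% for Gli2 and 116% for Gas1, so the first intervals reach well beyond the annotated genes. Of 10409 loci that could be compared with the annotation by name and had a strand, 90 lay on the other strand, and Gas1 was 1 of them. A long noncoding RNA gene, Gm48488, lies on the plus strand of that annotation and overlaps the 5′ part of Gas1 on chromosome 13, from 60176682 to 60177365 (GRCm38). Of the 2961 exonic bases of Gas1, 589 were also exonic in Gm48488. The protocol describes no strand marking, so reads from Gas1 and from the opposite strand cannot be told apart, and Gm48488 has no row of its own in the table. The first 300 coding bases of Gas1 (GRCm38, chromosome 13, 60176642 to 60176941, minus strand, exon 1) are given to show this overlap, with the 194 bases that lie in an exon of both genes in capitals.
Gas1: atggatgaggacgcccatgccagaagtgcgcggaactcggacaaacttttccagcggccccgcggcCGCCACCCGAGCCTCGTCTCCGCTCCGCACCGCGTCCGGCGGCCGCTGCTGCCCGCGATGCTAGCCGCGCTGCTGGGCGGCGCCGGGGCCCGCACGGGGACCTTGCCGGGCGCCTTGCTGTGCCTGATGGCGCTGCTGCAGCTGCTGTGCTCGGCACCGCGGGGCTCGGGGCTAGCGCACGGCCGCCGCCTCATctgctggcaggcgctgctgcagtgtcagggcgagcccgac

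Gli1 and Gli2 are paralogues, so their coding sequences were compared for stretches whose reads could be shared. The 100 coding bases that were most alike, without gaps, had 90 identical positions, and the longest identical run between the coding sequences was 23 bases. Against Gli3 the best window held 86 identical positions for Gli1 and 85 for Gli2. The window spans exons 9 and 10 of Gli1 (GRCm38, chromosome 10, 127334354 to 127336052) and exons 10 and 11 of Gli2 (chromosome 1, 118844506 to 118846006), both on the minus strand. Its sequences are shown because a read of 100 cycles from either gene would still meet several differing bases there, which are in capitals.
Gli1: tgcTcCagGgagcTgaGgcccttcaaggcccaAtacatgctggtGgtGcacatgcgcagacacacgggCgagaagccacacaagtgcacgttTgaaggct
Gli2: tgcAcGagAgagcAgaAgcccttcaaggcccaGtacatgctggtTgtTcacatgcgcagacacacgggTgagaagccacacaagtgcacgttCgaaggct

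The Gli1 locus shares its whole interval in the table with Arhgap9, a gene on the plus strand. That interval is longer than the annotated Gli1 gene, and how far the exons of these genes overlap was not computed. Without strand, reads from any shared exonic bases cannot be told apart. Arhgap9 stood at 0.229 FPKM in foregut and 0.461 in medial foregut, and at E10.5 at 1.54 in liver, 0.837 in dorsal and 0.718 in ventral pancreas. In liver its value was thus above that of Gli1 (0.996), and in ventral pancreas below it (1.36). FPKM is the number of fragments per kilobase of transcript, scaled to the mapped fragments of the library, so that levels of different genes can be set side by side. The annotation also places 9530036O11Rik and Gm26894 on the plus strand across Shh, and neither overlaps it as a locus of the table.

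Shh RNA was highest in the E8.5 libraries and nearly absent from liver. It stood at 10.2 FPKM in foregut, 7.35 in medial foregut, 3.14 in ventral pancreas, 0.417 in dorsal pancreas and 0.00678 in liver. The ventral pancreas thus held 7.54 times the FPKM of the dorsal pancreas. Among all named loci of its own library, Shh lay at percentile 52.2 in foregut, 44.5 in medial foregut, 24.3 in ventral pancreas, 3.86 in dorsal pancreas and 0.784 in liver, which is the same order. At values as low as those of liver and dorsal pancreas a ratio rests on few reads, and depth in reads is unknown.

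Gli1 RNA was high in the E8.5 libraries and in dorsal pancreas, and low in liver and ventral pancreas. It stood at 22.8 FPKM in foregut, 15.1 in medial foregut, 13.9 in dorsal pancreas, 1.36 in ventral pancreas and 0.996 in liver. Dorsal pancreas held 10.2 times the FPKM of ventral pancreas and 14.0 times that of liver. The order of liver and ventral pancreas was not stable: by percentile within the library, liver stood higher, at 17.0 against 12.7.

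Gli2 RNA followed the same division and had its top value in dorsal pancreas. It stood at 15.4 FPKM in dorsal pancreas, 13.0 in foregut, 10.4 in medial foregut, 1.09 in liver and 0.823 in ventral pancreas. Dorsal pancreas held 18.7 times the FPKM of ventral pancreas and 14.1 times that of liver. Between dorsal pancreas and the E8.5 libraries the differences were small, with ratios of 1.18 to foregut and 1.47 to medial foregut.

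Gas1 RNA varied least among the 4 genes and did not share the low level of the Gli genes in liver. It stood at 17.1 FPKM in foregut, 11.5 in dorsal pancreas, 10.2 in medial foregut, 9.63 in liver and 4.27 in ventral pancreas. The range was thus 3.99-fold, against 22.9-fold for Gli1 and 18.7-fold for Gli2. Dorsal pancreas, liver and medial foregut lay between percentiles 52.3 and 53.0 of their libraries, and their order there differed from that in FPKM. Ventral pancreas was the low library, at percentile 29.2. These values come from a locus listed on the strand opposite to the annotated gene.

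**Figure D1:**
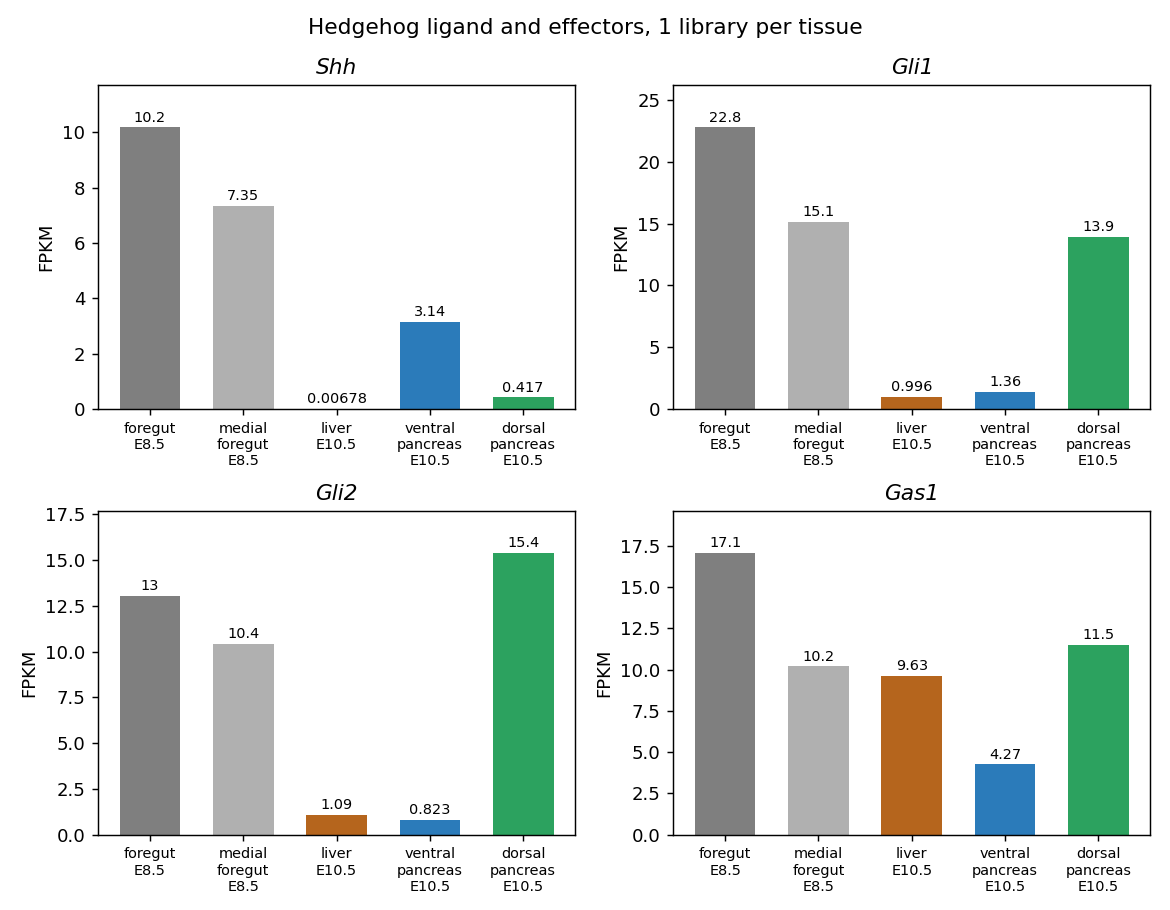
FPKM (vertical axis, from 0, with its own scale for each gene) of Shh, Gli1, Gli2 and Gas1 in the 5 libraries, 1 bar for each library and no error bars because there is 1 library for each tissue. Gli1 and Gli2 are low in liver and ventral pancreas, Shh is low in liver and dorsal pancreas, and Gas1 is lowest in ventral pancreas.

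The balance among the Gli genes also shifted between libraries. Gli1 stood at 1.75 times the FPKM of Gli2 in foregut, 1.45 in medial foregut, 1.65 in ventral pancreas, 0.909 in liver and 0.905 in dorsal pancreas. Gli2 stood at 1.23 times the FPKM of Gli3 in dorsal pancreas, 0.953 in medial foregut, 0.858 in foregut, 0.733 in liver and 0.329 in ventral pancreas. In ventral pancreas and liver these ratios rest on values near 1 FPKM. In both, Gli3, at 2.50 and 1.49 FPKM, was the most abundant of the 3 Gli genes, whereas Gli1 was the most abundant in both E8.5 libraries and Gli2 in dorsal pancreas.

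The genes were set within the pathway through a list of 39 Hedgehog genes, of which 32 had a locus of their own. These 32 include Shh, Gli1, Gli2 and Gas1, so the main counts are also given for the other 28. Differences between libraries are given as differences in log2(FPKM + 1), which understates the change of genes at low levels. The size rule asks for a difference of at least 1, a factor of 2 in FPKM + 1, with 5 FPKM or more in whichever library is higher. In a comparison against a pair of libraries, this had to hold in the same direction against each. For each comparison, the share of all 12375 named loci that met the same rule is given as the background of its counts. Scaling moved all loci somewhat: the median over named loci of liver minus ventral pancreas was -0.17 as deposited and 0.02 after median-ratio rescaling, and that of liver minus dorsal pancreas was -0.16 and, with totals made equal, -0.36. Differences of that size are therefore within what the scaling can set.

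Between the pancreatic buds the ligand and the effectors lay on opposite sides. The log2 difference, dorsal minus ventral, was 3.17 for Gli2 and 2.66 for Gli1, and both also met a stricter rule of at least 2, which 0.768% of all loci met in that direction. For Gas1 it was 1.24, and 0.83 with a pseudocount of 5 FPKM, which is short of the rule. For Shh it was -1.55, with the higher level in ventral pancreas, but its higher value was under 5 FPKM and it was not counted. Of the 32 list genes, 5 were lower in ventral pancreas (2.47% of all loci were lower) and 1 was higher (3.28% of all loci were higher). The 5 were Gli1, Gli2, Gas1, Gli3 and Disp2, and the 1 was Scube1. The list's median difference, ventral minus dorsal, was -0.13, against 0.01 over all named loci. Among the other 28 list genes, 2 were lower in ventral pancreas and 1 was higher, against the same shares of all loci, and the median was -0.12.

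Gli3 stood at 12.5 FPKM in dorsal against 2.50 in ventral pancreas, so the 3 Gli genes were all on the dorsal side. Disp2, a relative of the Dispatched gene whose product releases the ligand from its source cell, stood at 2.47 and 10.9 FPKM. Scube1, of a family of secreted proteins that includes carriers of the released ligand, stood at 9.57 in ventral and 2.57 in dorsal pancreas. Ptch1 and Smo showed no such division. Ptch1, which encodes the Patched receptor and is a target of the pathway, differed little, at 19.9 FPKM in the ventral and 21.4 in the dorsal bud, as did Smo, encoding Smoothened, at 58.0 and 69.5. In FPKM, Ptch1 was 14.6 times as abundant as Gli1 in ventral pancreas and 1.54 times in dorsal pancreas. Boc, a co-receptor related to Cdon, stood at 0.336 and 3.12 FPKM and Cdon at 6.86 and 7.91.

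**Figure D2:**
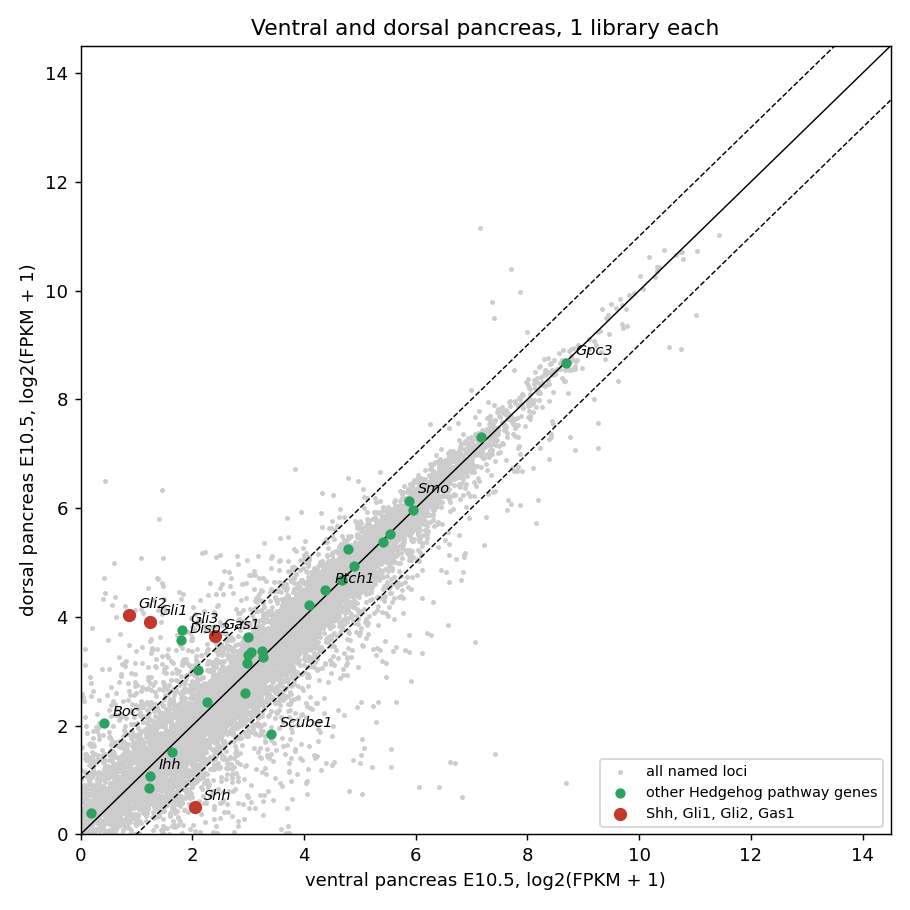
Dorsal against ventral pancreas at E10.5, both axes in log2(FPKM + 1), with all named loci in grey, Shh, Gli1, Gli2 and Gas1 in red and the other Hedgehog pathway genes in green; the solid line marks equal levels and the dashed lines a difference of 1. Gli1, Gli2 and Gas1 lie above the upper dashed line and Shh lies below the lower one.

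In Gli1 and Gli2, liver stood well below dorsal pancreas and close to ventral pancreas. The log2 difference, dorsal pancreas minus liver, was 2.97 for Gli2, 2.90 for Gli1 and 0.23 for Gas1. Ventral pancreas minus liver, it was -0.20 for Gli2, 0.24 for Gli1 and -1.01 for Gas1. None of the 32 list genes was counted against both pancreatic libraries, where 8.47% of all loci were, 3.11% higher and 5.36% lower. The count depended on the setting: with the FPKM of a library rescaled to sum to 1000000 it was 1 higher and 3 lower, where 13.6% of all loci were counted. With no minimum level it was 1 higher and 1 lower, where 12.1% were. Against dorsal pancreas alone 6 were lower and 0 higher, where 14.7% of all loci were counted in either direction. Against ventral pancreas alone 1 was higher and 1 lower, where 12.8% were. These shares cover both directions, so the 6 lower against dorsal pancreas were not set against a share of lower loci. Taken in either direction, none of the other counts stood far above the share over all loci. Ihh, the gene for Indian hedgehog, a second ligand, had its top value in liver, at 4.72 FPKM, against 1.36 in ventral and 1.10 in dorsal pancreas. It was thus the more abundant ligand gene in liver and in dorsal pancreas, and Shh in the other 3 libraries.

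By the size rule, Gli1 and Gli2 were lower than in both E8.5 libraries in liver and ventral pancreas, and neither was counted in dorsal pancreas, although Gli1 stood below both there as deposited. For Gli1 the log2 difference of liver was -3.58 from foregut and -3.01 from medial foregut, and for Gli2 -2.74 and -2.45. Ventral pancreas differed by -3.33 and -2.77 in Gli1 and by -2.94 and -2.65 in Gli2. Dorsal pancreas differed by -0.67 and -0.11 in Gli1 and by 0.22 and 0.52 in Gli2; the -0.11 became 0.09 with rescaled totals. The 3 comparisons share the same E8.5 libraries, so their values are not independent of each other.

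Of the 4 genes, Shh was the one below both E8.5 libraries by the size rule in each of the E10.5 tissues. Its log2 differences from foregut and medial foregut were -3.47 and -3.05 in liver, -2.98 and -2.56 in dorsal pancreas, and -1.43 and -1.01 in ventral pancreas. In ventral pancreas the count was lost with a pseudocount of 5 FPKM, where they were -0.90 and -0.60. Gas1 was counted in ventral pancreas, at -1.78 and -1.09, and the second of these became -0.71 with that pseudocount. Its differences were -0.76 and -0.07 in liver and -0.53 and 0.16 in dorsal pancreas; the -0.07 became 0.02 with median-ratio rescaling.

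Of the 32 list genes, 9 were lower in liver than in both E8.5 libraries, where 6.08% of all loci were lower and 5.24% higher. Beside Shh, Gli1 and Gli2 these included Ptch1, Cdon, Boc, Gli3 and Sufu, the last encoding a cytoplasmic inhibitor of Gli proteins. In ventral pancreas 8 were lower, where 3.31% of all loci were lower and 6.38% higher. These included all 4 genes described here, Ptch1, Boc and Gli3. In dorsal pancreas 2 were lower, Shh and Ptch1, where 2.8% of all loci were lower, and Disp2 was higher, where 4.36% were. Ptch1 stood at 75.4 FPKM in foregut and 52.1 in medial foregut, and at 15.2 in liver, so that all E10.5 libraries were below both E8.5 libraries. Boc stood at 10.9 and 6.79 FPKM at E8.5 and at 1.31 in liver. Over the list, liver had a median difference of -0.70 from foregut and -0.52 from medial foregut, against -0.09 and -0.08 over all named loci. For ventral pancreas the medians were -0.11 and -0.06, against 0.11 and 0.12, and for dorsal pancreas -0.05 and 0.08, against 0.09 and 0.11. Among the other 28 list genes, 6 were lower in liver, where 6.08% of all loci were, and 4 in ventral pancreas, where 3.31% were. In dorsal pancreas 1 was lower and 1 higher, where 2.8% and 4.36% of all loci were. The medians of these 28 were -0.54 and -0.45 in liver, -0.04 and 0.07 in ventral pancreas, and -0.05 and 0.08 in dorsal pancreas.

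Few other pathway genes met the size rule, which leaves out genes that stay under 5 FPKM. All 12 inhibitors with a locus, except Sufu in liver against E8.5, stayed short of the size rule in the 6 comparisons. Hhip, a membrane protein that binds and sequesters the ligand and a target gene, stood between 0.216 FPKM in liver and 2.59 in medial foregut. Gpc3, a glypican that competes with Patched for the ligand, stood between 234 FPKM in foregut and 474 in liver. None of the 6 further kinases and cilium proteins of the list was counted in a comparison. Of these, Evc and Evc2 share 1 interval on opposite strands. Over all loci, the share counted in either direction ran from 0.743% (foregut against medial foregut) to 11.3% (liver against both E8.5 libraries). Such low counts among 12 inhibitors and 6 further genes are thus near the share over all loci, and do not set these genes apart. Among 38 genes of the primary cilium, the organelle in which the pathway is transduced, 1 was higher in ventral than in the dorsal bud (3.28% of all loci were), and 6 were lower in liver than in both pancreatic libraries, where 5.36% of all loci were lower. The cilium genes' median difference of liver was -0.77 from ventral and -0.54 from dorsal pancreas, against -0.17 and -0.16 over all named loci.

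**Figure D3:**
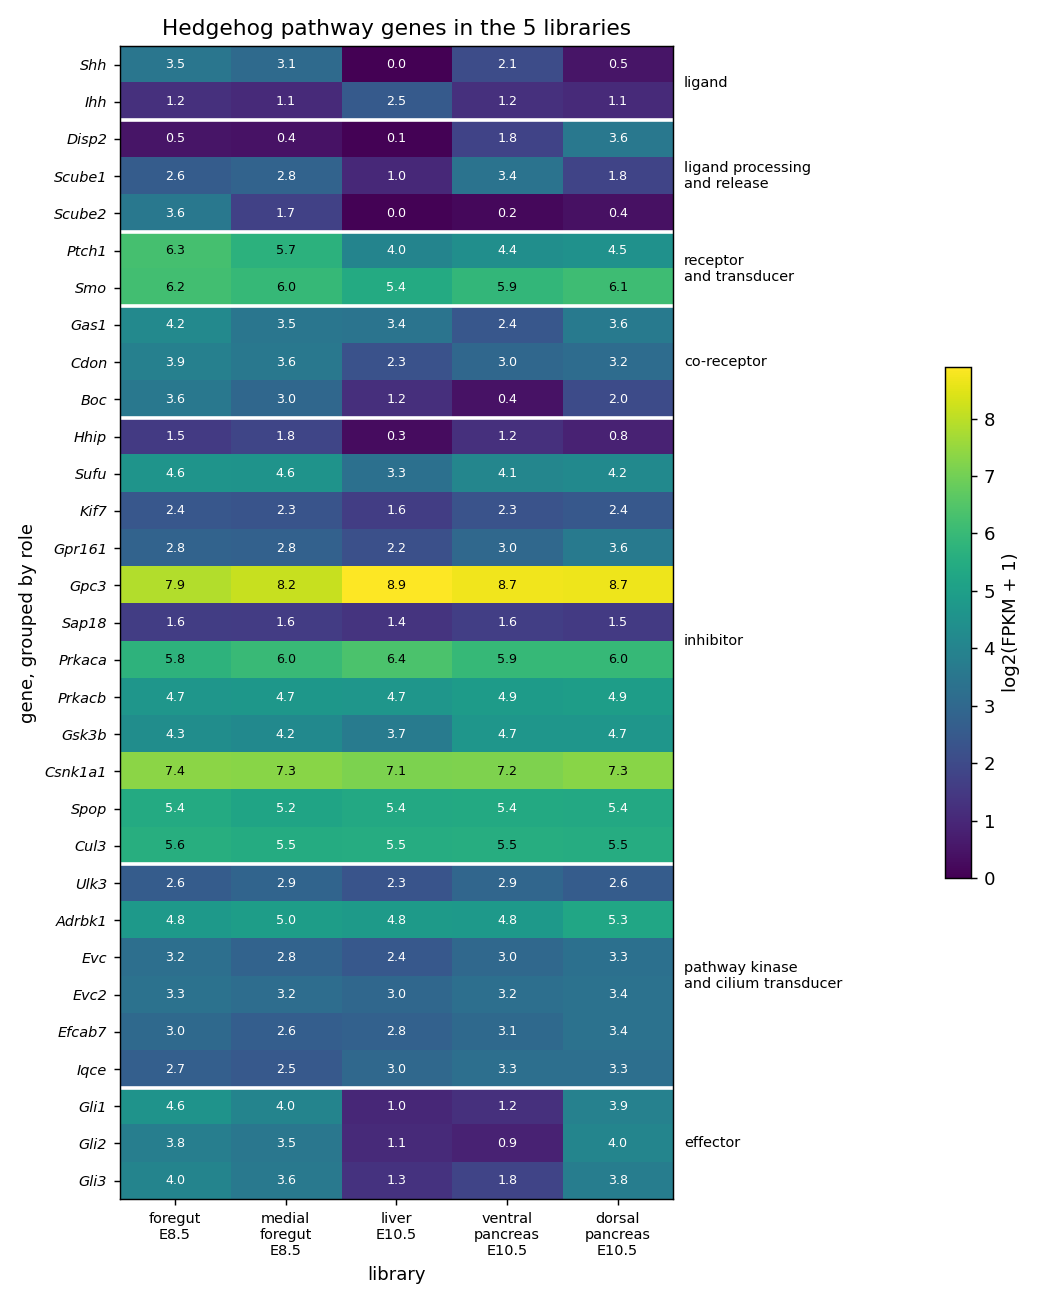
The Hedgehog pathway genes reported by name (rows, grouped by role) in the 5 libraries (columns), with log2(FPKM + 1) as colour and as a number in each cell. The 3 effectors are dark in liver and ventral pancreas, while most inhibitors keep nearly the same colour across the row.

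Known targets did not all follow Gli1. Of 19 target genes with a locus, a list that includes Gli1, 4 were lower in the ventral bud, where 2.47% of all loci were lower. Beside Gli1 itself these were Mycn, Foxf1a and Nkx3-2. Foxf1a, a forkhead factor of gut mesenchyme, stood at 18.8 FPKM in dorsal pancreas and between 0.859 and 2.40 in the other libraries, at a locus listed on the opposite strand to the annotated gene. Nkx3-2, a homeobox factor of the same mesenchyme, stood at 9.57 FPKM in dorsal pancreas and at most 0.0826 in the others. At E8.5, where Gli1 was highest, both were therefore low. Tbx2 and Wnt5a showed another pattern, at 9.34 and 7.62 FPKM in foregut, 16.5 and 12.8 in medial foregut, and 3.46 and 1.20 in dorsal pancreas. By the size rule both were below both E8.5 libraries in liver and ventral pancreas, as Gli1 was, and also in dorsal pancreas. Of the 19 targets, 5 were lower and 1 higher in liver than in both E8.5 libraries, where 6.08% and 5.24% of all loci were. In ventral pancreas 6 were lower and 1 higher, against 3.31% and 6.38%. In dorsal pancreas 6 were lower and 3 higher, against 2.8% and 4.36%. Tbx3 was higher in ventral than in dorsal pancreas, at 13.7 against 3.01 FPKM.

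The libraries are bulk tissue, so fewer cells of a type and less RNA for each cell cannot be told apart, and markers of several cell types differed along with the genes described. Of 26 genes marking gut and hepatic mesenchyme, 10 were lower in the ventral than the dorsal bud and 1 was higher, against 2.47% and 3.28% of all loci. Their summed level was 275 FPKM in ventral pancreas, 676 in dorsal pancreas, 424 in liver, 1590 in medial foregut and 1022 in foregut, and none was at 0 in any library. The E8.5 sums were mostly Acta2, a smooth muscle actin gene. Acta2 was the top gene at E8.5 and in liver, and Vim, another gene of the list, in both pancreatic libraries. Without the top gene of each library the sum was 387 FPKM in foregut and 472 in dorsal pancreas. It was then 548 in medial foregut, 290 in liver and 143 in ventral pancreas. Where the top genes differ, these sums leave out different genes and are not like for like. Barx1, a stomach mesenchyme factor, stood at 0.360 FPKM in the ventral and 89.3 in the dorsal bud, and Pdgfra, a receptor of mesenchymal cells, at 3.48 and 35.0. In liver Pdgfra stood at 6.68 FPKM, and in the E8.5 libraries at 24.2 and 41.7, so that Pdgfra was low in the same libraries as Gli1 and Gli2. Other mesenchymal genes were not: Col1a1 stood at 29.4 FPKM in liver and 20.8 in ventral pancreas, against 15.7 in dorsal pancreas. In liver, 5 of the 26 were higher than in both buds (3.11% of all loci were) and 1 was lower (5.36% were). Of 11 endothelial genes, 6 were lower in the ventral than the dorsal bud and Flt1 was higher, against 2.47% and 3.28% of all loci. Their summed levels were 28.8 and 68.4 FPKM, with none at 0. Of 18 endoderm and epithelium genes, 10 were higher in ventral than in dorsal pancreas, where 3.28% of all loci were, with summed levels of 1737 and 803 FPKM. In liver, where Shh was nearly absent, 7 of the 18 were lower than in both buds (5.36% of all loci were lower) and 2 were higher (3.11% were), and the sum was 713 FPKM. The 7 included Epcam, at 28.4 FPKM in liver. The sums at E8.5 were 951 FPKM in foregut and 1282 in medial foregut, and no gene of the list was at 0 in any library. Epcam, an epithelial adhesion gene, stood at 343 FPKM in the ventral and 163 in the dorsal bud, and was at 45.6 and 46.5 in the E8.5 libraries, where Shh was highest. The part of cell composition in the differences of Shh, Gli1, Gli2 and Gas1 was not tested.

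Between foregut and medial foregut, where fewest loci met the size rule, all 4 genes stood higher in foregut. The log2 differences were 0.69 for Gas1, 0.56 for Gli1, 0.42 for Shh and 0.30 for Gli2, and none met the size rule. Of the 32 list genes, Scube2 was higher, where 0.469% of all loci were higher and 0.275% lower, at 10.7 against 2.28 FPKM. It belongs to the same family as Scube1. Of the list, 25 genes were above 0 in this difference, against 50.4% of all named loci, and the median was 0.16 against 0.00. Of the other 28 list genes, 21 were above 0, with a median of 0.12.

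Markers of the neural tube moved with this difference. Of 13 such genes 6 were higher in foregut (0.469% of all loci were) and none was lower, with a summed level of 251 FPKM in foregut and 114 in medial foregut. Olig2, which marks motor neuron progenitors, stood at 11.3 and 1.31 FPKM, and Sox1, a marker of neural progenitors, at 14.6 and 7.04. At E10.5 the neural sum was 104 FPKM in dorsal pancreas, 75.0 in ventral pancreas and 31.5 in liver. Its top gene there was Foxa2, which is also an endoderm gene, and without it the sums were 71.3, 29.2 and 7.43 FPKM. Sox1, Olig2 and Zic2 were listed at 0 in liver and Olig2 also in dorsal pancreas. Of 10 neural crest genes 3 were higher in foregut, against the same share of all loci, with sums of 64.5 and 24.8 FPKM. Other lists went the other way. Below 0 in foregut minus medial foregut were 24 of 26 mesenchyme, 10 of 11 endothelial and 12 of 12 heart muscle genes. Over all named loci 49.4% were below 0. By the size rule 3 mesenchyme, 0 endothelial and 2 heart muscle genes were lower in foregut, where 0.275% of all loci were. The floor plate and the notochord are known sources of Shh beside the endoderm. Of the 11 notochord genes listed beside Shh, 6 had a locus and the defining genes T and Noto were not among them, so notochord could not be followed. Heart muscle genes were also abundant at E8.5, where 12 such genes summed to 5589 FPKM in foregut and 9650 in medial foregut, against 512 in liver and 24.4 to 30.9 in the pancreatic buds, with Myl2 listed at 0 in both pancreatic libraries. The defining endoderm factor Foxa2 was present throughout, at 18.2 and 12.4 FPKM at E8.5 and between 24.0 and 45.7 at E10.5. The part of neural or cardiac tissue in the E8.5 levels was not tested.

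**Figure D4:**
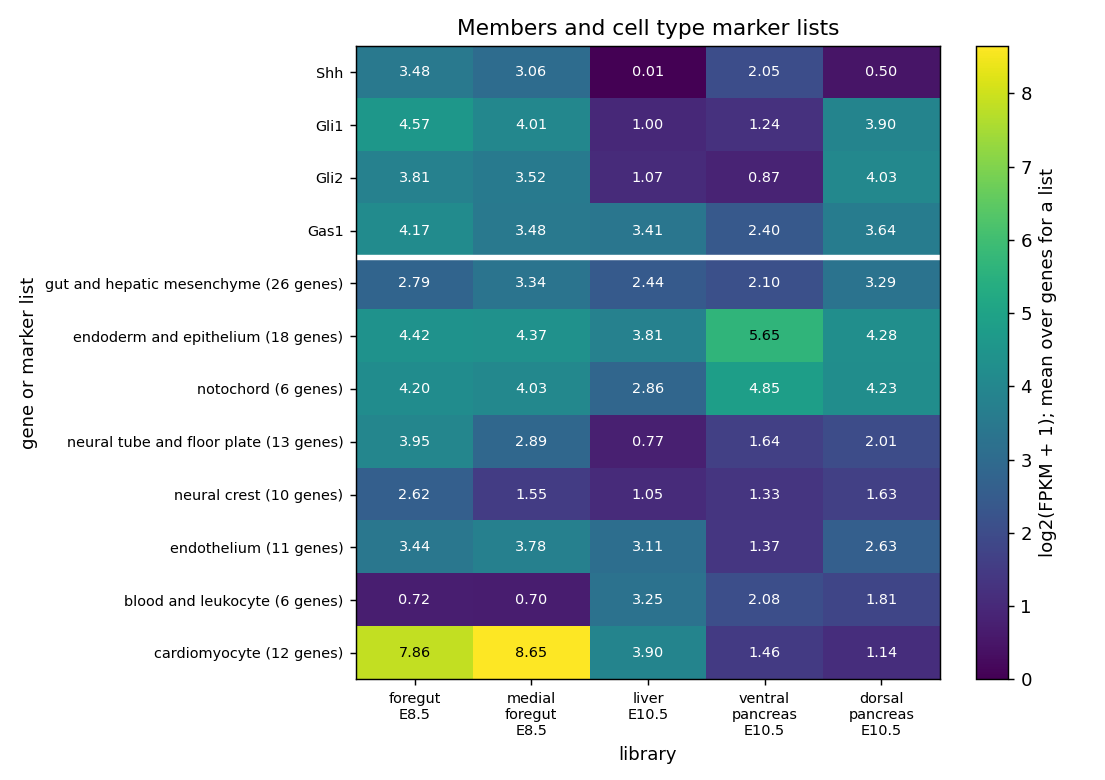
Log2(FPKM + 1) of Shh, Gli1, Gli2 and Gas1 (upper rows) and its mean over the genes of 8 cell type marker lists (lower rows) in the 5 libraries, as colour and as a number in each cell. The endoderm list is highest in ventral pancreas, the neural list in foregut and the cardiomyocyte list in medial foregut.

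The genes with the most similar profiles were found among 8768 loci that had a single name and reached 5 FPKM in a library. Likeness was the root mean square difference over the 5 libraries between profiles of log2(FPKM + 1), each centred on its own mean. It describes these libraries and says nothing of shared control. Nearest to Gli2 were Cntfr, a receptor subunit for ciliary neurotrophic factor, at 0.16, Hoxb3 at 0.23, Hoxb1 at 0.25, Crmp1 at 0.29 and Frem1 at 0.32. Gli1 ranked 6th in likeness to Gli2, at 0.34, and Gli3 ranked 8th, at 0.40. Nearest to Gli1 were Fndc3c1 at 0.23, Hoxb3 at 0.29, Crmp1 at 0.32, Gli2 at 0.34 and Cntfr at 0.38, and Gli3 ranked 9th, at 0.43. The Hoxb3 locus is listed on the opposite strand to the annotated gene. Its level, like that of Gli2, was high at E8.5 and in dorsal pancreas, at 22.8, 23.0 and 24.9 FPKM, and low in liver and ventral pancreas, at 1.75 and 1.61.

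Shh and Gas1 had other neighbours. Nearest to Gas1 were Lin28b, an RNA-binding regulator of early development, at 0.19, Ptn at 0.20, Mycn at 0.22, E130012A19Rik at 0.22 and Cisd1 at 0.24. Mycn is itself on the target list and stood at 54.6, 39.0, 26.1, 19.9 and 42.2 FPKM from foregut through medial foregut, liver and ventral pancreas to dorsal pancreas. Among the 5 nearest to Shh were S100g at 0.38, Pou5f1 at 0.38, Zic5 at 0.40 and Vnn1 at 0.45. The Zic5 locus covers 14.0% of the annotated span, and the S100g locus is far longer than the annotated gene, at 4972% of its span. These neighbours depended on the pseudocount, and with 5 FPKM in place of 1, 1 of the 5 was kept for Shh, 3 for Gli1, 2 for Gli2 and 2 for Gas1.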

How the data were processed

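The authors deposited 1 table of FPKM values, per the file headers, with 14053 loci, of which 1678 without a name were left out. Per the submitters' processing notes, the tools were Cufflinks 1.3.0 and TopHat 1.33 and the build mm9, with no roles given. No source used here states the scaling between libraries. Whether the table's starts count from 0 or 1 is not stated. GENCODE M21 (GRCm38) served for strand, span and sequence only. Depth in reads is unknown: of 51 loci below 0.05 FPKM in both E8.5 libraries, at most 2 shared a ratio, so no reads were recovered.

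From these values, differences in log2(FPKM + 1), the size rule and likeness were computed with Python 3.11.15, numpy 2.4.6 and pandas 2.3.3, and checked on simulated data. The members, the lists and the rule were chosen with earlier results of these data known. Named genes are Shh, Gli1, Gli2 and Gas1, Hedgehog list genes, up to 4 of each other list by size and up to 4 that define a cell type, and the 5 nearest loci. Alternatives were other pseudocounts, scalings and filters. Arhgap9, Tbx2, Wnt5a and Col1a1 were named after their values were seen. Some genes that were counted are not reported here by name.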

Additional observations from a re-analysis of the deposited data

How the results depend on the processing

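No paired analysis was possible because each tissue had 1 library, and for the same reason no library could be left out of its group. Of 44 counts of Hedgehog genes under another setting, 36 lay within 1.5 times the reported one and 8 did not. The share of all loci counted in either direction also moved with the setting, and is given in brackets. For liver against both pancreatic libraries, reported at 0 (8.47%), the count was 1 with a pseudocount of 0.1 FPKM (9.83%). It was 4 with totals rescaled to 1000000 (13.6%), 1 with median-ratio rescaling (8.55%) and 2 with no minimum level (12.1%). Against ventral pancreas alone it was 2 (12.8%), and against dorsal pancreas alone 6 (14.7%). For ventral pancreas against both E8.5 libraries, reported at 8 (9.69%), it was 5 with a pseudocount of 5 FPKM (5.45%). For dorsal pancreas against both, reported at 3 (7.16%), it was 5 against foregut alone (8.44%). The comparisons against a single library were chosen after seeing the data. Of 160 differences of Shh, Gli1, Gli2 and Gas1 under another pseudocount or scaling, 153 stayed on the same side of the size rule, 5 lost it, all with a pseudocount of 5 FPKM and for Shh or Gas1 in ventral pancreas, 2 gained it, both for Shh in ventral pancreas with rescaled totals, and 0 of those counted changed sign; 2 small differences did, Gli1 in dorsal pancreas against medial foregut (0.09 with rescaled totals) and Gas1 in liver against medial foregut (0.02 with median-ratio rescaling). Rescaling totals to 1000000 multiplied each library by between 1.97 and 2.29. The minimum of 5 FPKM and the pseudocount therefore stood lower relative to the deposited values under that setting. The cause of these shifts was not tested beyond the arithmetic of the settings.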
